A study of Mus musculus with 31 samples.

Results

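The open chromatin around 6 genes for surface molecules of regulatory T cells (Tregs) was followed through an IL-2 pulse: Nt5e (CD73), Entpd1 (CD39), Nrp1 (neuropilin-1), Izumo1r (folate receptor 4, FR4), Gpr83 and Lrrc32 (GARP). The genes were selected on their role at the Treg surface and with the accessibility of their peaks after mIL-2 at 0.75 h already in view. Members were all peaks whose deposited gene names include 1 of these 6, which gave 102 of 104979 peaks: 62 for Nrp1, 14 for Entpd1, 9 for Nt5e, 7 for Izumo1r, 5 for Gpr83 and 5 for Lrrc32. Overlapping Nrp1 peaks repeat the same bases, so the 102 peaks cover 77 separate regions, 37 of them at Nrp1. Gpr83 and Izumo1r are neighbours on chromosome 9, 15024 bp apart.

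The libraries were ATAC-seq, in which Tn5 transposase cuts accessible DNA, from Tregs sorted out of the spleen of C57BL/6 mice with an RFP-FoxP3 reporter. Mice received 100 µL PBS, 5 µg mIL-2 or 20 µg of mIL-2/CD25 (FP), which joins the cytokine to CD25, the alpha chain of the IL-2 receptor. At 0.75 h and at 16 h there were 3 libraries each of PBS, mIL-2 and FP. At 72 h there were 3 of PBS and 3 of FP, and at 168 h 3 of PBS and 4 of FP. Every group therefore consists of reporter mice, and the doses of the injected proteins differed. Ages are not given, and nothing in the labels says that libraries of a group came from separate animals, so p-values measure the spread between these libraries.

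CD39 and CD73 act in series on the cell surface: CD39 removes phosphates from extracellular ATP and CD73 turns the resulting AMP into adenosine, which restrains effector T cells. Neuropilin-1 binds semaphorins and is common on thymus-derived Tregs. FR4 belongs to the folate receptor family and Gpr83 is a G protein-coupled receptor, and both are markers of Tregs. GARP holds latent TGF-beta on the Treg surface. IL-2 acts on Tregs through STAT5, whose canonical site has the form TTCNNNGAA.

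The values described below centre on 5 peaks that lie away from the gene starts. The sequences of 4 are printed here. For 3 of them the adjusted p was below 0.05 for mIL-2 against PBS at 0.75 h, a description without a test. The other had the lowest adjusted p of any member for FP against PBS at 16 h, which was not below 0.05. The sequences are from GRCm38, plus strand, and capitals mark every TTCNNNGAA. The peaks are called the Nt5e proximal intron peak (chr9:88337661-88337909, 10588 bp from the gene start), the Nt5e distal intron peak (chr9:88362023-88362451, 35040 bp), the Izumo1r intron peak (chr9:14892274-14892555, 11535 bp), the Nrp1 intron peak (chr8:128472973-128473343, 114554 bp) and the Nrp1 downstream peak (204675 bp from the gene start and past the gene's end). The Nt5e proximal and Izumo1r sequences are whole. The other 2 show 300 bases, chr9:88362152-88362451 and chr8:128473044-128473343.
Nt5e proximal: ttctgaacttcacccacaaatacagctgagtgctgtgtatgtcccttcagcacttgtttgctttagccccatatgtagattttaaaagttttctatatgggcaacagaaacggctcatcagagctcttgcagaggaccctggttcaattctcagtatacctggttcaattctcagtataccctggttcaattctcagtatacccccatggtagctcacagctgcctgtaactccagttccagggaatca
Nt5e distal: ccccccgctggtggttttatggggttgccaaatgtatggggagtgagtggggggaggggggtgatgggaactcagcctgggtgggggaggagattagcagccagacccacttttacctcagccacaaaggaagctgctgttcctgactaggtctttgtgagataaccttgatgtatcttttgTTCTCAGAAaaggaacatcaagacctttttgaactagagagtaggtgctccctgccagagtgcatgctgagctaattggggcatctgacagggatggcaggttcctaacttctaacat
Izumo1r intron: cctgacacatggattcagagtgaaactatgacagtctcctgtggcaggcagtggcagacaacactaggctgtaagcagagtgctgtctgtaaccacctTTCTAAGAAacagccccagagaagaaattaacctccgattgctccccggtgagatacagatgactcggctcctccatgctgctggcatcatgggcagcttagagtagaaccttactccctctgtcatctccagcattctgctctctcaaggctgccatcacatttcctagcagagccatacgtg
Nrp1 intron: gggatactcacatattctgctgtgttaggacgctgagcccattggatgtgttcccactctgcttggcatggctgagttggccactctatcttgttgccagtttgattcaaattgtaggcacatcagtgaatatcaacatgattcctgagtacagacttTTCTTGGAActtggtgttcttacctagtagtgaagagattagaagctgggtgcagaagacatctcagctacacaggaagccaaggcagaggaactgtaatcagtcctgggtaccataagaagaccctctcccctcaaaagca

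In GENCODE M21 these 4 peaks lie in introns and the Nrp1 downstream peak lies outside the gene. The deposited annotation labels the Izumo1r peak as 3' end. The 3 matches appear in capitals, TTCTCAGAA in the Nt5e distal peak, TTCTAAGAA in Izumo1r and TTCTTGGAA in the Nrp1 intron. The motif was searched on both strands, and TTCNNNGAA reads the same on both. It occurred in 13.33% of all peaks and in 17 of the 102 member peaks. Among peaks within 10% of the width of each of the 4, the share was 9.03% for the Nt5e proximal, 14.65% for the Nt5e distal, 10.34% for the Izumo1r and 13.13% for the Nrp1 intron peak. The AP-1 motif TGANTCA, in 13.21% of all peaks, occurred in 1 of the 4, the Nrp1 intron peak, as TGATTCA. The reference marks 60.6% of the Nt5e proximal peak as repeat, against 0% of the Izumo1r peak, 11.1% of the Nrp1 intron peak and 13.5% of the Nt5e distal peak. How reads from repeats were placed is not given in the sources used here.

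Values per library are CPM, the counts of a peak per M counts of the library after scaling for composition. Library totals ran from 7.39 M to 59.6 M counts (M, mega) with a median of 28.4 M. The shallowest were PBS replicate 1 (7.39 M) and FP replicate 2 (12.3 M) at 168 h. A single peak on chromosome 1 (chr1:24611561-24615794) held 14.98% to 32.17% of the counts of each library. The promoter peaks of the T cell and Treg markers had medians over the 31 libraries of 17.9 CPM for Ctla4, 16.3 CPM for Foxp3, 12.2 CPM for Il2ra, 7.42 CPM for Cd3e and 1.35 CPM for Cd4. Among markers of other blood cells, Cd8b1 (CD8 T cells) had a promoter peak at 8.74 CPM, Cd14 (myeloid cells) at 5.16 CPM, Cd79a (B cells) at 1.26 CPM and Klrb1c (NK cells) at 0.504 CPM. These peaks differ in width, so CPM alone does not rank them. Per kb of peak the medians were 31.7 CPM for Ctla4, 17.0 for Foxp3, 15.2 for Il2ra, 8.33 for Cd3e and 7.24 for Cd4. For the other blood cells they were 8.98 for Cd8b1, 4.59 for Cd14, 5.98 for Cd79a and 3.58 for Klrb1c. Ms4a1, Csf1r, Ncr1, Siglech and Hbb-bs had no peak.

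The proteins were first compared at 0.75 h. mIL-2 against PBS at 0.75 h was the result in view when the genes were chosen, so its values are a description without a test. Here 3 of 101 member peaks with enough counts were past an adjusted p of 0.05, all higher after mIL-2: the Nt5e proximal, the Izumo1r and the Nrp1 intron peak. Over all tested peaks the share was 0.497% (499 of 100468), and nothing is read from the members' count. The Izumo1r peak was not past it without mIL-2 replicate 1 or 3, without any 1 of the PBS replicates, with the library total as a covariate or in the fit of all 31 libraries. The Nrp1 intron peak was not past it without mIL-2 replicate 3 or without PBS replicate 3, which left 1 of the 3 peaks in those 2 fits. Entpd1, Gpr83 and Lrrc32 had 0 such peaks of 14, 5 and 5.

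The Nt5e proximal intron peak had 0.288, 0.151 and 0.199 CPM in the PBS libraries at 0.75 h, from 7, 3 and 4 counts. It had 4.23, 2.18 and 4.56 CPM after mIL-2 and 3.33, 1.70 and 1.31 CPM after FP. Every library of both proteins lay above every PBS library, and the lowest mIL-2 library fell within the range of FP. The log2 fold change was 4.06 ± 0.59 (SE, n = 3 against 3) for mIL-2.

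The Izumo1r intron peak read 0.494, 0.706 and 0.497 CPM in PBS, 3.54, 2.39 and 4.52 CPM after mIL-2 and 1.81, 1.00 and 2.53 CPM after FP. Both treated groups lay above PBS without overlap and overlapped each other. Its log2 fold change for mIL-2 was 2.62 ± 0.52.

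The Nrp1 intron peak read 1.69, 0.403 and 0.547 CPM in PBS, 5.87, 4.74 and 6.73 CPM after mIL-2 and 2.91, 3.27 and 2.98 CPM after FP. The 3 groups did not overlap, with FP between PBS and mIL-2. The log2 fold change for mIL-2 was 2.70 ± 0.48. A low Nrp1 peak 332 bp farther from the gene start had 1.97 ± 0.64, and one past the gene's end (chr8:128506029-128506350) had 2.04 ± 0.51. Other Nrp1 peaks were lower after mIL-2, with -2.35 ± 0.81, -1.43 ± 0.57 and -1.15 ± 0.51 as the lowest values. Of 61 tested Nrp1 peaks 41 had values above 0.

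**Figure D1:**
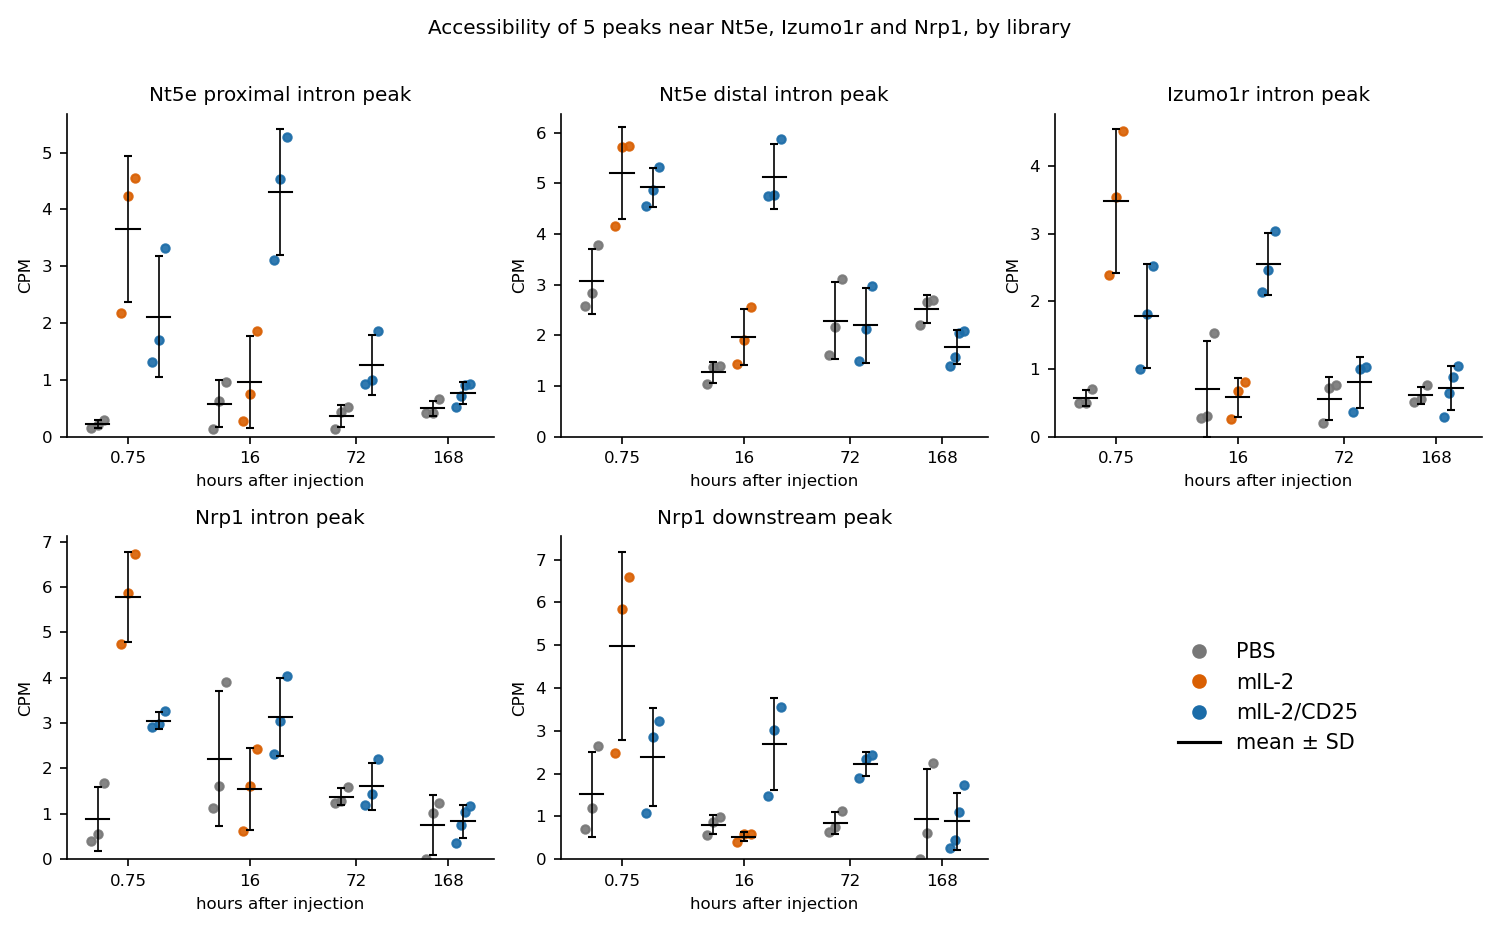
CPM (y axis, from 0) of the 5 peaks in each library (points) by hours after injection (x axis) and treatment (colour), with the mean and SD of each group as black bars (n = 3, and 4 for FP at 168 h). At 16 h the mIL-2 libraries of the Nt5e proximal peak lie between 0.268 and 1.85 CPM and the FP libraries between 3.10 and 5.28 CPM.

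The other 2 peaks were less separated at 0.75 h. The Nt5e distal intron peak read 3.79, 2.57 and 2.83 CPM in PBS, 5.74, 4.16 and 5.73 CPM after mIL-2 and 4.87, 4.55 and 5.33 CPM after FP. It was already open in PBS, and both treated groups lay above PBS with a log2 fold change of 0.77 ± 0.33 for mIL-2. The Nrp1 downstream peak read 1.19, 0.706 and 2.63 CPM in PBS, 6.60, 2.47 and 5.85 CPM after mIL-2 and 3.24, 2.86 and 1.08 CPM after FP. These groups overlapped, and the value for mIL-2 was 1.72 ± 0.54.

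For FP against PBS at 0.75 h no member peak passed edgeR's quasi-likelihood test (0 of 101, with 6 with an unadjusted p below 0.05 and 1 called by DESeq2, the Nrp1 intron peak). Over all peaks 0.00199% passed (2 of 100468). This comparison shares its PBS libraries with the one for mIL-2, on which the Nt5e proximal, Nrp1 intron and Izumo1r peaks were named. The place of these peaks above PBS here partly follows from that choice. The largest member value was the Nt5e proximal peak at 3.28 ± 0.58 (adjusted p = 0.110, edgeR, higher in 3 of 3 libraries). Without FP replicate 3 its adjusted p was 0.0481. The Nrp1 intron peak had 1.79 ± 0.47 (adjusted p = 0.514) and the Izumo1r peak 1.65 ± 0.51 (adjusted p = 0.933), both with groups that did not overlap. Groups did not overlap for 8 of the 102 member peaks, against 8.427% of all peaks tested.

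FP against mIL-2 at 0.75 h also used the mIL-2 libraries known beforehand and is given without a test. The log2 difference was -0.78 ± 0.48 for the Nt5e proximal, -0.96 ± 0.48 for the Izumo1r and -0.91 ± 0.44 for the Nrp1 intron peak. None of the 101 member peaks was past the threshold, and the share over all peaks was 0%. Members were higher with FP in 25 of 101 cases, against 51.7% of all peaks, with many of the Nrp1 peaks being overlapping copies.

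The Nt5e distal, Izumo1r and Nrp1 downstream peaks were named for the lowest p of their gene for FP against PBS at 16 h. Their place above PBS at that time therefore follows from the choice, and so in part does their place above mIL-2. Over all members the FP and PBS groups did not overlap at 14 of 102 peaks, against 12.35% of all peaks. The Nt5e proximal peak had 0.621, 0.140 and 0.964 CPM in PBS, 1.85, 0.268 and 0.754 CPM after mIL-2 and 4.54, 5.28 and 3.10 CPM after FP. All 3 FP libraries were above all 6 others, while mIL-2 and PBS overlapped. For FP against PBS the log2 fold change was 2.85 ± 0.64 (adjusted p = 0.0947, edgeR). For mIL-2 against PBS it was 0.67 ± 0.63 (adjusted p = 1.00), and leaving out single libraries moved it from -0.18 (without mIL-2 c1) to 1.21 (without PBS c3).

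The Nt5e distal peak showed its widest gap at this time, with 1.03, 1.40 and 1.37 CPM in PBS, 2.55, 1.44 and 1.91 CPM after mIL-2 and 4.75, 5.87 and 4.76 CPM after FP. The groups did not overlap. FP against PBS gave 2.02 ± 0.42 (adjusted p = 0.0546), the lowest adjusted p of any member at 16 h, and mIL-2 against PBS gave 0.63 ± 0.42 (adjusted p = 1.00). The PBS libraries at 16 h lay below those at 0.75 h, which ran from 2.57 to 3.79 CPM. Time points carry different dates in the sample ids, so time and date cannot be told apart in a level.

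Whether these 2 Nt5e peaks were called for FP against PBS at 16 h turned on the fit. The quasi-likelihood test over the groups of that time called 0 of 102 member peaks (9 with unadjusted p below 0.05), against 0.114% of all peaks (115 of 100771, all higher). DESeq2 called both Nt5e peaks, with adjusted p of 0.00480 for the proximal and 4.7e-04 for the distal. A fit of the FP and PBS groups alone gave 0.0222 and 0.0313, and a fit of all 31 libraries gave 0.0365 and 0.00435. Leaving out mIL-2 library c1 or c2 also brought both below 0.05, and leaving out any other library of that time left 0 called.

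The Izumo1r peak at 16 h had 1.53, 0.280 and 0.304 CPM in PBS, 0.811, 0.669 and 0.259 CPM after mIL-2 and 3.05, 2.47 and 2.14 CPM after FP. FP lay above both other groups, with 1.80 ± 0.67 against PBS (adjusted p = 0.679). The Nrp1 downstream peak had 0.993, 0.559 and 0.862 CPM in PBS, 0.579, 0.402 and 0.589 CPM after mIL-2 and 3.56, 3.01 and 1.48 CPM after FP. Here too FP stood apart from both groups, with 1.71 ± 0.57 against PBS (adjusted p = 0.549). The Nrp1 intron peak, in contrast, overlapped between the groups: 1.12, 3.92 and 1.62 CPM in PBS, 2.43, 1.61 and 0.613 CPM after mIL-2 and 3.05, 4.03 and 2.31 CPM after FP.

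For mIL-2 against PBS at 16 h no member passed (0 of 102 by edgeR, 1 with an unadjusted p below 0.05, 0 by DESeq2), and neither did any peak of the whole table (0%, with 3654 with an unadjusted p below 0.05 and 1 called by DESeq2). FP against mIL-2 at 16 h called 0 of 102 members (6 with an unadjusted p below 0.05), against 0.141% of all peaks (142 of 100771). The Nrp1 downstream peak had the largest difference, 2.34 ± 0.58 (adjusted p = 0.150, and 0.0131 by DESeq2). The Nt5e proximal peak had 2.18 ± 0.60 (adjusted p = 0.276), the Izumo1r peak 2.15 ± 0.67 (adjusted p = 0.448) and the Nt5e distal peak 1.39 ± 0.40 (adjusted p = 0.335). All 4 were higher with FP in 3 of 3 libraries. Except for the Nt5e proximal peak, they were named on these FP libraries, so the differences partly follow from the choice.

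**Figure D2:**
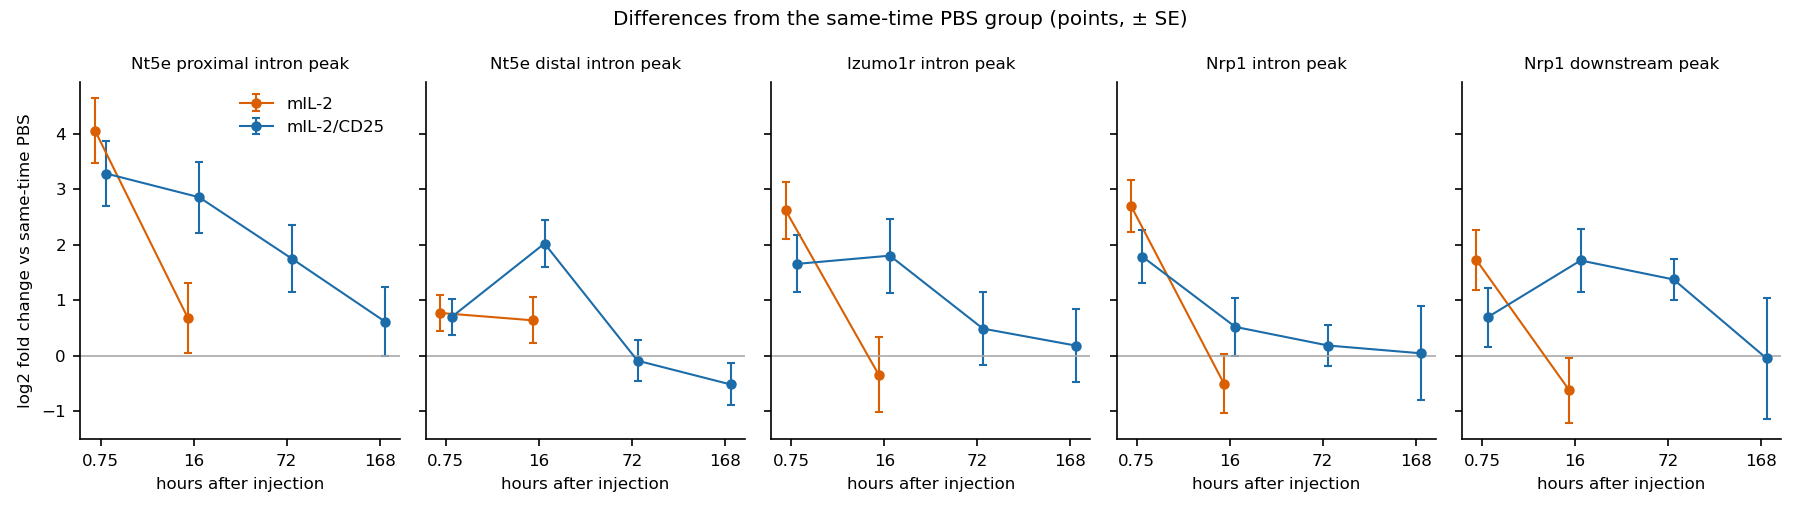
Log2 fold change against the same-time PBS group (y axis) by hours after injection (x axis, not to scale) for mIL-2 and FP at the 5 peaks, with bars of ± SE. For the Nt5e proximal peak mIL-2 goes from 4.06 to 0.67 between 0.75 h and 16 h and FP from 3.28 to 2.85. This peak was named for its mIL-2 value at 0.75 h, so the fall with mIL-2 may follow in part from the choice.

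Whether an effect differed between times was tested as a difference of effects over all 31 libraries. The mIL-2 difference, 16 h minus 0.75 h, uses the libraries known beforehand and is a description: -3.37 ± 0.89 for the Nt5e proximal, -3.20 ± 0.83 for the Nrp1 intron, -2.96 ± 0.89 for the Izumo1r and -2.35 ± 0.98 for the Nrp1 downstream peak, but -0.13 ± 0.49 for the Nt5e distal peak. The share of all peaks past the threshold was 0.0411%, and 0 of 102 members were. For FP, 16 h minus 0.75 h, 0 of 102 members and 0% of all peaks passed (3 members with an unadjusted p below 0.05, 0 by DESeq2).

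At 72 h only PBS and FP were compared. The Nt5e proximal peak had 0.517, 0.134 and 0.435 CPM in PBS and 1.87, 0.998 and 0.924 CPM after FP, and the groups did not overlap. The log2 fold change was 1.74 ± 0.61 (adjusted p = 0.930). The Nrp1 downstream peak had 1.13, 0.757 and 0.637 CPM in PBS and 1.90, 2.33 and 2.44 CPM after FP, again without overlap, with 1.37 ± 0.38 (adjusted p = 0.930). At Izumo1r 0 of 7 peaks had groups without overlap, and the log2 fold changes ran from -0.29 to 0.49. The Nt5e distal peak had 3.10, 1.60 and 2.16 CPM in PBS and 1.4997, 2.98 and 2.12 CPM after FP, and the 3 libraries of each group were intermixed. Its FP effect at 72 h minus that at 16 h was -2.08 ± 0.48 (adjusted p = 1.00), and its 16 h value was the one it was named on. Of all peaks 0.000957% passed that test with 0 of 102 members (3 with an unadjusted p below 0.05, 0 by DESeq2).

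No member passed for FP against PBS at 72 h (0 of 102 by edgeR, 8 with an unadjusted p below 0.05, 0 by DESeq2), nor did any peak of the table (0%, with 5236 with an unadjusted p below 0.05 and 137 called by DESeq2). Along Nrp1, 13 of its 37 regions had FP libraries that were all above the PBS libraries and 0 had them all below. Over the single member peaks the count of non-overlapping groups was 31 of 102, against 11.19% of all peaks tested. Merged into regions this was 19 of 77, and 4 Entpd1 peaks were among them, all higher. The 11.19% is a share of single peaks in either direction. No such share is given for merged regions or for higher peaks alone, so nothing is read from the region counts. The Nrp1 log2 values in the 13 regions ran from 0.26 to 1.37. Markers of other cells were mixed at 72 h. The Gata1 promoter peak (erythroid cells) ran from 2.32 to 4.71 CPM in PBS and 4.47 to 8.56 CPM after FP, with overlap. That of Cd14, the only listed myeloid gene with one, ran from 4.23 to 5.16 CPM and 3.33 to 4.01 CPM, lower without overlap. The Pecam1 and Kdr promoter peaks (endothelial cells) summed to 9.43 to 14.3 CPM in PBS and 11.05 to 12.5 CPM after FP. That of Cd79a (B cells) ran from 1.55 to 2.89 CPM and 1.78 to 3.33 CPM. The part of these cells in the Nrp1 values was not tested.

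At 168 h 3 PBS and 4 FP libraries were compared. The Nt5e proximal peak had 0.419, 0.654 and 0.418 CPM in PBS and 0.708, 0.519, 0.925 and 0.903 CPM after FP, which overlapped. The Izumo1r peak had 0.559, 0.508 and 0.758 CPM in PBS and between 0.295 and 1.04 CPM after FP. The Nt5e distal peak ran from 2.19 to 2.69 CPM in PBS and from 1.40 to 2.08 CPM after FP, lower without overlap, with -0.52 ± 0.38 (adjusted p = 0.899). FP against PBS at 168 h called 0 of 102 members (5 with an unadjusted p below 0.05, 0 by DESeq2) and 0% of all peaks (4660 with an unadjusted p below 0.05, 46 by DESeq2). The FP difference, 168 h minus 72 h, called 0 of 102 members (2 with an unadjusted p below 0.05, 0 by DESeq2) and 0% of all peaks. This difference was -1.41 ± 0.97 for the Nrp1 downstream peak and -0.27 ± 0.80 for the Nrp1 intron peak.

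**Figure D3:**
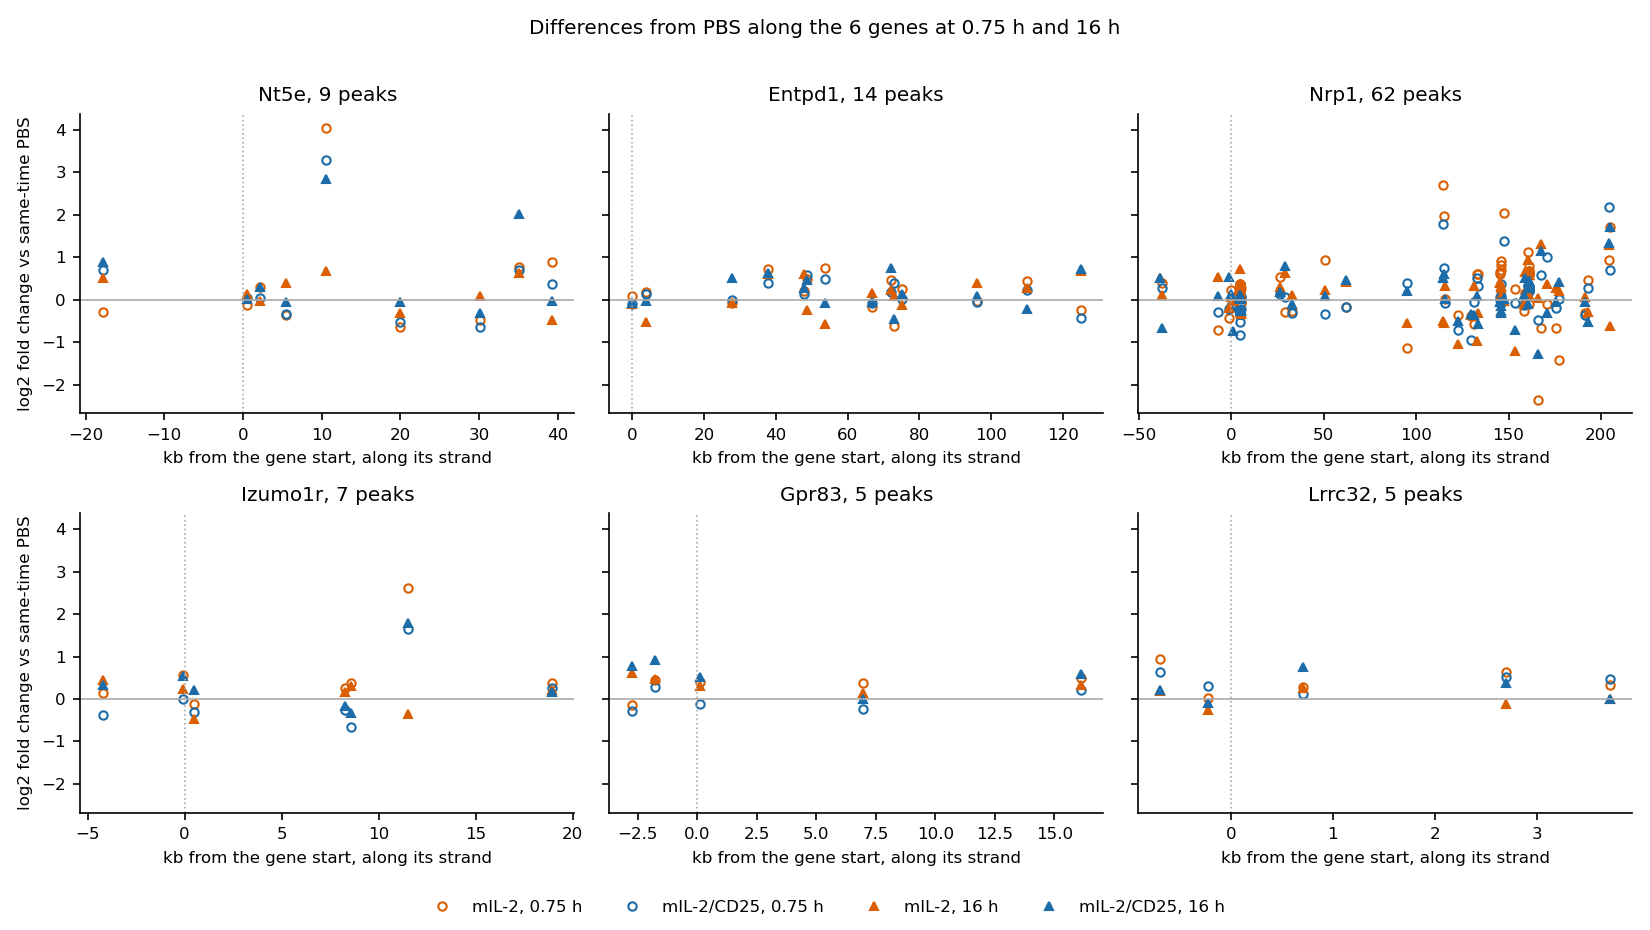
Log2 fold change against the same-time PBS group (y axis) of every tested member peak, by distance from the gene start in kb along the gene's strand (x axis), for mIL-2 and FP at 0.75 h (open circles) and 16 h (filled triangles). The highest points, up to 4.06, lie at single peaks inside or past Nt5e, Izumo1r and Nrp1, and those of Entpd1 stay between -0.62 and 0.76 in these 4 comparisons.

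The peaks at the gene starts were more open per kb than these 5. Per kb of peak, mean CPM over all libraries was 30.6 at the start of Nt5e, 18.5 at Izumo1r, 17.7 at Nrp1, 17.6 at Gpr83, 9.16 at Lrrc32 and 7.67 at the Entpd1 start site inside the gene. It was 5.82 at the Nt5e proximal, 4.32 at the Izumo1r and 5.60 at the Nrp1 intron peak. The Nt5e start (chr9:88327272-88328058) had 32.1, 26.2 and 26.9 CPM in PBS at 0.75 h, 23.7, 24.1 and 30.6 CPM after mIL-2 and 38.5, 26.2 and 21.6 CPM after FP. These groups overlapped, as they did at 16 h, where FP against PBS gave 0.01 ± 0.20 (adjusted p = 0.999). The Nrp1 start (chr8:128357932-128359037) had 19.7, 20.3 and 19.4 CPM in PBS at 16 h and 20.2, 21.3 and 24.1 CPM after FP, with 0.14 ± 0.20 (adjusted p = 0.998).

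The Izumo1r start (chr9:14903679-14904341) had 10.5, 8.88 and 13.0 CPM in PBS at 0.75 h, 17.4, 13.4 and 16.7 CPM after mIL-2 and 10.9, 10.1 and 11.1 CPM after FP. The mIL-2 libraries lay above both other groups, with 0.56 ± 0.24 against PBS. At 16 h the value for FP was 0.55 ± 0.27 (adjusted p = 0.939) with overlapping groups. The most open Izumo1r peak (chr9:14907763-14908558), 4211 bp upstream of the start, ran from 13.6 to 25.1 CPM in PBS and from 17.0 to 26.1 CPM after mIL-2 at 0.75 h.

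The neighbouring Gpr83 start (chr9:14859869-14860782) had 19.5, 9.30 and 15.5 CPM in PBS at 16 h, 15.4, 21.5 and 18.0 CPM after mIL-2 and 21.6, 22.2 and 19.6 CPM after FP. FP lay just above PBS and overlapped mIL-2, with 0.51 ± 0.24 against PBS (adjusted p = 0.934). All 5 Gpr83 peaks had values above 0 for FP at 16 h, with a median of 0.59, and 48.5% of all peaks did. The same held for mIL-2 at 16 h (median 0.33) and FP at 168 h (median 0.35). Above 0 were 4 of 5 for mIL-2 at 0.75 h, and 2 of 5 for FP at 0.75 h and at 72 h.

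**Figure D4:**
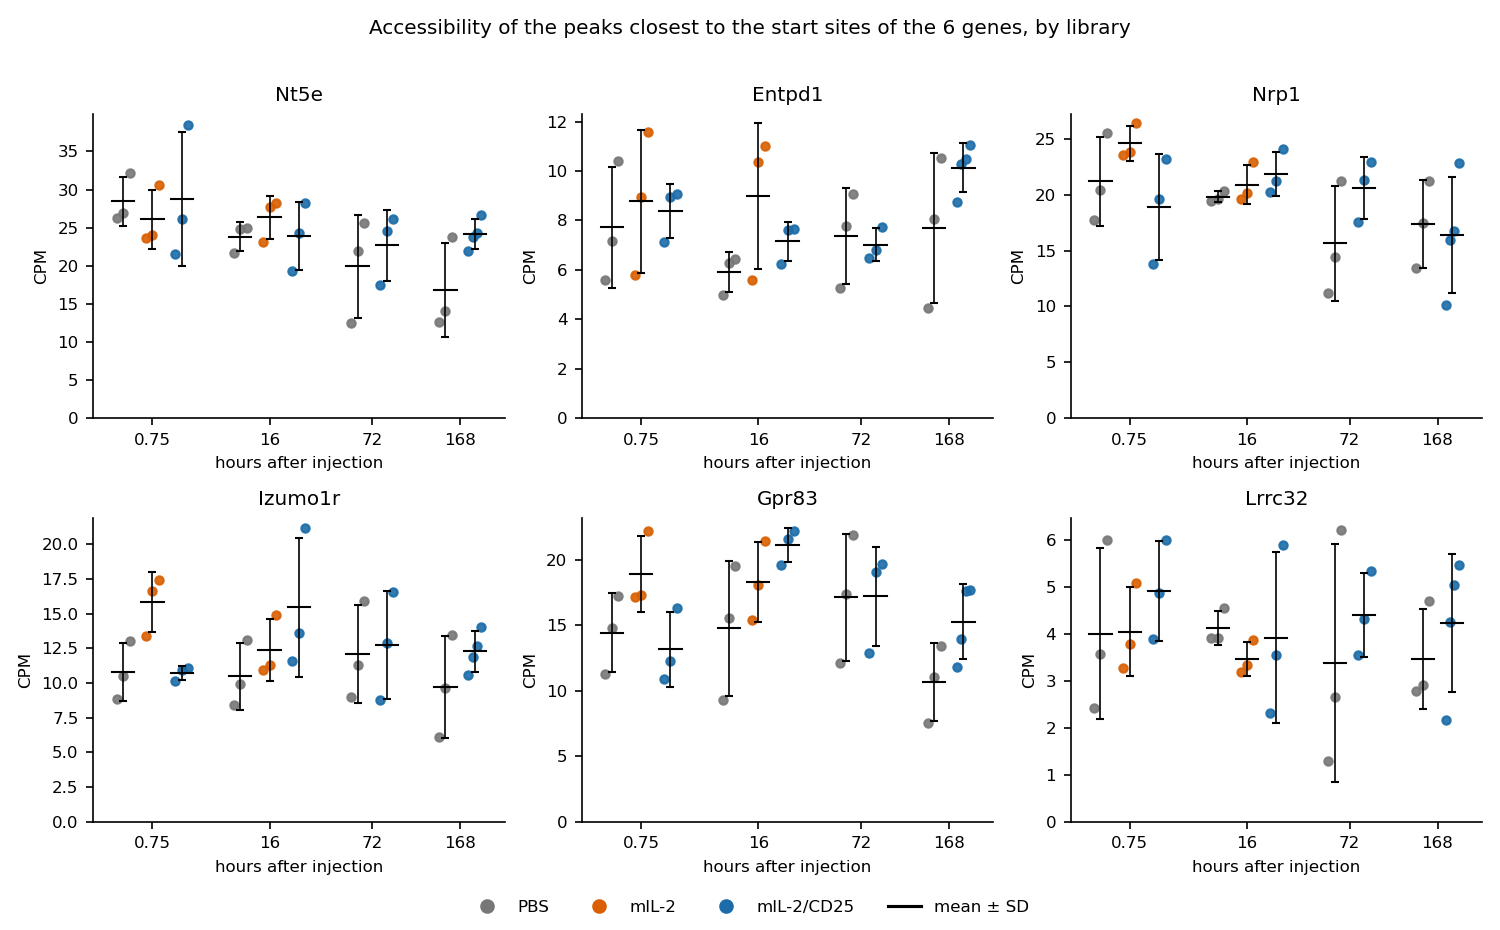
CPM (y axis, from 0) of the peak closest to a start site of each of the 6 genes, in each library (points) by hours after injection (x axis) and treatment (colour), with mean and SD as black bars (n = 3, and 4 for FP at 168 h). At the Nt5e start the 9 libraries of 0.75 h lie between 21.6 and 38.5 CPM with the 3 treatments intermixed.

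No peak of any of the 6 genes passed edgeR's quasi-likelihood test in a comparison that was tested. Entpd1, Lrrc32 and Gpr83 also had no peak past the threshold in the description of mIL-2 at 0.75 h. The Entpd1 peak that also covers the start of Tctn3 (chr19:40611799-40612687) was the most open member peak, at 27.1 to 40.4 CPM in PBS, 30.3 to 39.7 CPM after mIL-2 and 28.2 to 34.0 CPM after FP at 0.75 h, and its reads cannot be divided between the 2 genes. The Entpd1 intron peak with the lowest p for FP at 16 h (chr19:40684154-40684518) had 3.64, 2.38 and 2.54 CPM in PBS and 3.15, 6.38 and 4.80 CPM after FP, with 0.74 ± 0.41 (adjusted p = 0.964). The larger Lrrc32 promoter peak (chr7:98489687-98490291) had 7.37, 4.61 and 5.73 CPM in PBS at 16 h and 13.1, 6.38 and 10.8 CPM after FP, with 0.76 ± 0.33 (adjusted p = 0.876), and 1 FP library lay inside the PBS range. The smaller Lrrc32 peak nearer the start (chr7:98488838-98489274) gave -0.08 ± 0.38 (adjusted p = 0.998).

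The rest of the members are best given by their medians. The median log2 fold change over members was 0.34 for mIL-2 at 0.75 h and 0.23 at 16 h, and for FP 0.05, 0.10, 0.22 and 0.06 at 0.75, 16, 72 and 168 h. Over all peaks tested the medians were -0.02, 0.00, 0.01, -0.02, -0.03 and -0.01. The members' medians weigh Nrp1 most, with its overlapping copies. By gene, the mIL-2 median at 0.75 h was 0.35 for Nrp1, 0.37 for Izumo1r, 0.39 for Gpr83, 0.32 for Lrrc32, 0.19 for Entpd1 and -0.12 for Nt5e, with 4 of 9 Nt5e peaks above 0.

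Other genes of the same pathways were counted by their peaks. The lists were chosen with earlier results known, and values for mIL-2 at 0.75 h are again a description. Of 13 genes that handle or sense adenosine or ATP, 5 of 136 peaks were past the threshold with mIL-2 at 0.75 h, all higher, against 0.497% of all peaks. They lay at Panx1, an ATP release channel, at 2.36 ± 0.31, at Adk, which phosphorylates adenosine, at 2.00 ± 0.30, at Enpp1, which splits ATP, at 1.74 ± 0.24 and 1.61 ± 0.23, and at Dpp4 (CD26), which binds adenosine deaminase, at 1.14 ± 0.20. The Panx1 peak (chr9:15015313-15015815) lies in the neighbourhood of Gpr83 (chr9:14860210-14870789) and Izumo1r (chr9:14885814-14903949). With FP at 16 h 2 of 137 rose, against 0.114% of all peaks, at Dpp4 (1.29 ± 0.23, adjusted p = 0.0160, edgeR) and Enpp1 (1.38 ± 0.28, adjusted p = 0.0401). Dpp4 was also higher with FP than with mIL-2 at 16 h, at 1.16 ± 0.23 (adjusted p = 0.0336). Of 11 neuropilin and semaphorin pathway genes, 1 of 89 peaks was past the threshold with mIL-2 at 0.75 h, at Sema4d (3.04 ± 0.32), and 0 of 92 with FP at 16 h. Of 6 genes around GARP and TGF-beta release, 0 of 70 peaks passed in either comparison, and Folr1 and Folr2 had no peak.

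The peaks elsewhere most like 3 members were ranked by Pearson's r of log2(CPM + 0.5) minus the same-time PBS mean over the 31 libraries, among 56057 peaks, as a description. The points share libraries and depth. For the Nt5e proximal peak they were peaks at Cytip (r = 0.913), Gcsh (0.909) and Mrvi1 (0.904). For the Izumo1r peak they were the Dpp4 exon peak named above (0.919) and intron peaks of Usp6nl (0.873) and Fhit (0.868). For the Nrp1 intron peak they were peaks assigned to Gm25916 (0.868), Gm22521 (0.860) and Gm18269 (0.856).

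Markers of other cells were read beside these values. Of 3 erythroid genes 1 had a promoter peak, Gata1, and Hbb-bs had no peak at all. The Gata1 peak ran from 1.99 to 3.54 CPM in PBS, 4.49 to 7.14 CPM after mIL-2 and 2.76 to 4.11 CPM after FP at 0.75 h. It ran from 2.17 to 3.75 CPM in PBS, 2.48 to 4.17 CPM after mIL-2 and 3.67 to 9.43 CPM after FP at 16 h. It did not overlap PBS after mIL-2 at 0.75 h, and overlapped PBS after FP at 16 h. Of 11 erythroid marker peaks tested 0 passed in either comparison. The summed promoter peaks of 2 of 3 endothelial genes, Pecam1 and Kdr, ran from 3.26 to 5.65 CPM in PBS, 4.58 to 9.63 CPM after mIL-2 and 5.38 to 10.5 CPM after FP at 0.75 h, and from 8.36 to 9.39, 8.70 to 9.65 and 6.87 to 8.18 CPM at 16 h. The part of these cells in the members' values was not tested.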

How the data were processed

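The deposited file holds whole-number read counts per peak and library, with no normalization. Mapping used BWA on GRCm38 (mm10) and peak calling MACS2 2.1.2, per the submitters' processing notes. Peaks were kept by reproducibility between pseudo-replicates, per the series' design. The read counter, duplicate handling and peak merging were not given. Commas inside the gene names of 9561 deposited lines shift all later fields of those lines, so each line was parsed from its end. Groups came from the sample titles. The labels' protocol gives 0.75 h for every sample, so later times rest on titles and column names. The 16 h columns name only the group, and those libraries are called c1, c2 and c3. Technical replicates (2 per sample, per the labels) are not separate in the table.

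All groups of a time were fitted together in R 4.3.3 with edgeR 4.0.16: TMM factors, filterByExpr (minimum count 10, minimum total 15) and the quasi-likelihood F test, with Benjamini-Hochberg adjustment over all tested peaks and a threshold of 0.05. An SE is the log2 fold change divided by the square root of F. Differences between times came from one fit of 31 libraries. The biological coefficient of variation was 38.6% to 48.0% and residual degrees of freedom 4 to 6 per time. CPM are counts per M (mega) of the library total times its TMM factor. The scripts were tested on simulated data. Alternatives were DESeq2 1.42.0, library totals only, no filter, the library total as a covariate, other sets of libraries, a replicate block and leaving out each library. Start sites are from GENCODE M21 and sequences and repeat marking from RefSeq GRCm38.p6.

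The members and gene lists were chosen with earlier results of these data known. Peaks named are those called, the peak of each gene closest to a start site, its most open peak and that with the lowest p for FP at 16 h. The Nrp1 peaks beside the intron peak and past the gene's end were named after their values were seen. So were the Nrp1 peaks given as lower after mIL-2 at 0.75 h. One sequence and one marker gene are not reported here.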

Additional observations from a re-analysis of the deposited data

How the results depend on the processing

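For mIL-2 against PBS at 0.75 h, 1 to 3 member peaks were called when 1 library was left out (1, the Nt5e proximal peak, without mIL-2 replicate 3 or without PBS replicate 3), and 2 to 4 under the other settings. For FP against PBS at 0.75 h, DESeq2 called 1, leaving out 1 library gave 0 to 1, and the other settings except the replicate block gave 0. For FP against PBS at 16 h, DESeq2, the 2 compared groups alone and the fit of all 31 libraries each called 2, leaving out 1 library gave 0 to 2 (2 without mIL-2 library c1 or c2), and library totals, no filter and the covariate gave 0. DESeq2 called 1 for FP against mIL-2 at 16 h and 1 for the mIL-2 difference, a fall at the Nrp1 intron peak. Every other comparison called 0 members under every setting run, also without both shallow 168 h libraries, an alternative chosen after seeing the data. Signs turned in 3 named values: with the library total as a covariate the Nrp1 downstream peak was -0.33 for FP at 0.75 h and the Gpr83 start -0.22 for mIL-2 at 16 h, and leaving out single libraries gave -0.18 (without mIL-2 c1) to 1.21 for the Nt5e proximal peak with mIL-2 at 16 h. The cause was not tested. Values smaller than their SE were not counted as turning sign.

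The samples share only a replicate number. At 0.75 h the correlation of deviations was 0.0057 to 0.301 for same-numbered pairs and -0.281 to 0.0643 for the others, and 8 of 9 libraries correlated best with their own number, a hint from the data. With the replicate block, 3 members were called for mIL-2 and 1 for FP at 0.75 h (the Nt5e proximal peak, adjusted p = 0.0171, edgeR), and 0 at 72 h and 168 h. No paired analysis was possible at 16 h because those columns carry no label number.

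Over all peaks, leaving out 1 library moved the calls for mIL-2 at 0.75 h between 187 and 591, for FP at 16 h between 37 and 141 and for FP against mIL-2 at 16 h between 38 and 180. DESeq2 called 1102, 475 and 482 there, and 217 for FP at 0.75 h, 137 at 72 h, 46 at 168 h and 270 for the mIL-2 difference. The replicate block called 983 for mIL-2 and 129 for FP at 0.75 h. The covariate called 286 for mIL-2 at 0.75 h, 127 for FP at 72 h, 10 at 168 h, 31 for FP against mIL-2 at 16 h and 193 for the mIL-2 difference. Library totals called 5 for FP at 0.75 h, 54 at 16 h, 62 for FP against mIL-2 and 25 for the mIL-2 difference, no filter 10 for FP at 0.75 h, and the 2 groups alone 194 for FP at 16 h. Low counts limit the 5 peaks, such as 2 to 7 counts in single PBS libraries of the Nt5e proximal peak. Some other member peaks were lower still, down to a mean of 0.336 CPM at Nrp1.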
